A study of Mus musculus with 18 samples.

Results

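The tissue described here is the lesioned right brain of mice 10 days after a photothrombotic stroke, set against the right brain of sham mice. A photothrombotic stroke is made by injecting rose bengal, a dye that light activates, and shining a laser through the skull so that the vessels under the spot clot. The stroke mice were male C57BL/6 mice, an inbred wild-type strain, 9 weeks of age, and were given the dye at 100 mg/kg. Light followed after 5 min and lasted 15 min; it was green (532 nm, 40 mW) and came from a 2 mm fiber over a point 2 mm to the right of bregma, a skull landmark. The brain was cut on a cryostat and the lesion, located on T2-weighted magnetic resonance images, was taken as a micropunch, and punches of about the same size were taken from the right side of sham mice of the same strain, sex and age. The labels do not say whether the sham mice received the dye, the light or neither. Each group holds 3 animals and 1 library per animal, so 6 of the 18 libraries of the study enter the comparison, 10 days 1, 2 and 5 and sham right 1, 2 and 3. Values of single libraries are given in this order throughout. The other 12 libraries are left-side punches and the lesion at 4 h, 1 day and 3 days. They share the estimate of the spread, and the 3-day lesion and the left-side punches are also set beside the lesion at 10 days.

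The days after an ischemic injury of the brain are known as a clearance and scar phase. Microglia, the resident phagocytes, and macrophages that enter from the blood take up dead cells and myelin and break them down in lysosomes, and the cholesterol of the myelin is exported on apolipoproteins or stored in droplets. Astrocytes around the core become hypertrophic and fibroblast-like cells lay down a fibrotic core of collagen and other matrix proteins.

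Total RNA was sequenced and the values are FPKM, fragments scaled to the length of the transcript and to the total of the library, as deposited. They allow levels of different genes to be set beside each other. Depth per library is unknown from such values. A gene was tested where it reached 1 FPKM in at least 3 of the 18 libraries, which left 14016 genes. A gene under 1 FPKM in sham tissue could thus enter only through other libraries, such as lesions where it is high. The share of tested list members that rose can therefore lean upwards. Differences are taken after a transformation to log2(FPKM + 1), by which changes of genes at low level come out too small, and are given with their standard error (SE) from a limma fit. The p-values were adjusted by Benjamini-Hochberg over all 14016 genes, with a call at an adjusted p under 0.05. Values in brackets are, unless stated otherwise, the log2 difference ± SE of 10 days minus sham right and its adjusted p. The pieces are bulk tissue, so fewer cells of a type and less RNA per cell cannot be told apart.

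The libraries at 10 days held 13144, 12862 and 12462 genes at 1 FPKM or more, against 12452, 12504 and 12575 in sham right. Library 5 at 10 days stood apart from the other lesion libraries of its time. Over the tested genes its log2 values correlated with those of libraries 1 and 2 at 0.932 and 0.935, while libraries 1 and 2 correlated at 0.986 and the sham libraries at 0.987 to 0.989. Mitochondrially encoded genes took 29.3%, 29.8% and 44.6% of all FPKM in the lesion libraries and 29.2%, 32.2% and 33.1% in the sham libraries. That is a mean of 34.6% ± 8.7 at 10 days against 31.5% ± 2.05 in sham right (SD, n = 3 each), with a difference of 3.04 points that did not pass an exact permutation test (2-sided p = 0.8, smallest possible p 0.1) and that was -1.99 points without library 5. FPKM values of a library share 1 total, and the median gene of library 5 lay 0.20 log2 units under the sham mean. Counts of the gene lists are also given without library 5 where that count is lower. Transcripts that mark brain tissue were present, as Snap25, a synaptic vesicle fusion protein, stood at 398, 454 and 576 FPKM at 10 days against 436, 441 and 390.0 FPKM in sham right. Transthyretin (Ttr), which marks choroid plexus, stood at 625, 402 and 533 FPKM at 10 days against 267, 144 and 226 FPKM in sham right. All lesion values lay above all sham values, yet Ttr was not called (adjusted p = 0.767). The limma test pools the spread of all 18 libraries, and Ttr ran from 0.807 to 576 FPKM at 4 h and from 0.502 to 421 FPKM at 1 day. The missing call thus does not show equal levels. The 12 choroid plexus and ependyma genes had a summed level of 792, 553 and 713 FPKM at 10 days against 371, 237 and 343 FPKM in sham right. Of these genes 0 were called in either direction, and the log2 difference was above 0 in all 12. Most of that sum is Ttr, and the other 11 genes summed to 166, 151 and 181 FPKM at 10 days against 104, 93.0 and 116.5 FPKM in sham right. The part of choroid plexus in the results was not tested.

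A total of 1000 genes were differentially expressed between the lesion at 10 days and sham right, 7.13% of those tested. Of these, 871 were higher in the lesion (6.21% of the tested genes) and 129 were lower (0.92%). A log2 difference of at least 1 was found for 481 of the higher genes and 20 of the lower ones, and a difference of at least 2 for 142 and 1. The median difference was 1.08 among the higher genes, -0.70 among the lower genes and -0.07 over all tested genes. In 867 of the 871 higher genes and all 129 lower genes the 3 lesion values lay beyond the 3 sham values, a pattern shown by 27% of all tested genes. The largest rises and falls named below were chosen among genes with this pattern. Its mention for single called genes describes their values and adds no support to the call. Without library 5, 802 genes were higher (5.72%) and 56 lower (0.4%), of which 721 and 47 were called in the same direction with it. The number of lower genes was 283 and 294 without library 1 and library 2 at 10 days, and 57 to 68 without any 1 of the sham libraries. Library 5 had the highest of the 3 lesion values in 65.4% of the higher genes and the lowest in 86.8% of the lower genes, while over all tested genes it was the highest in 27.9% and the lowest in 59.2%.

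**Figure D1:**
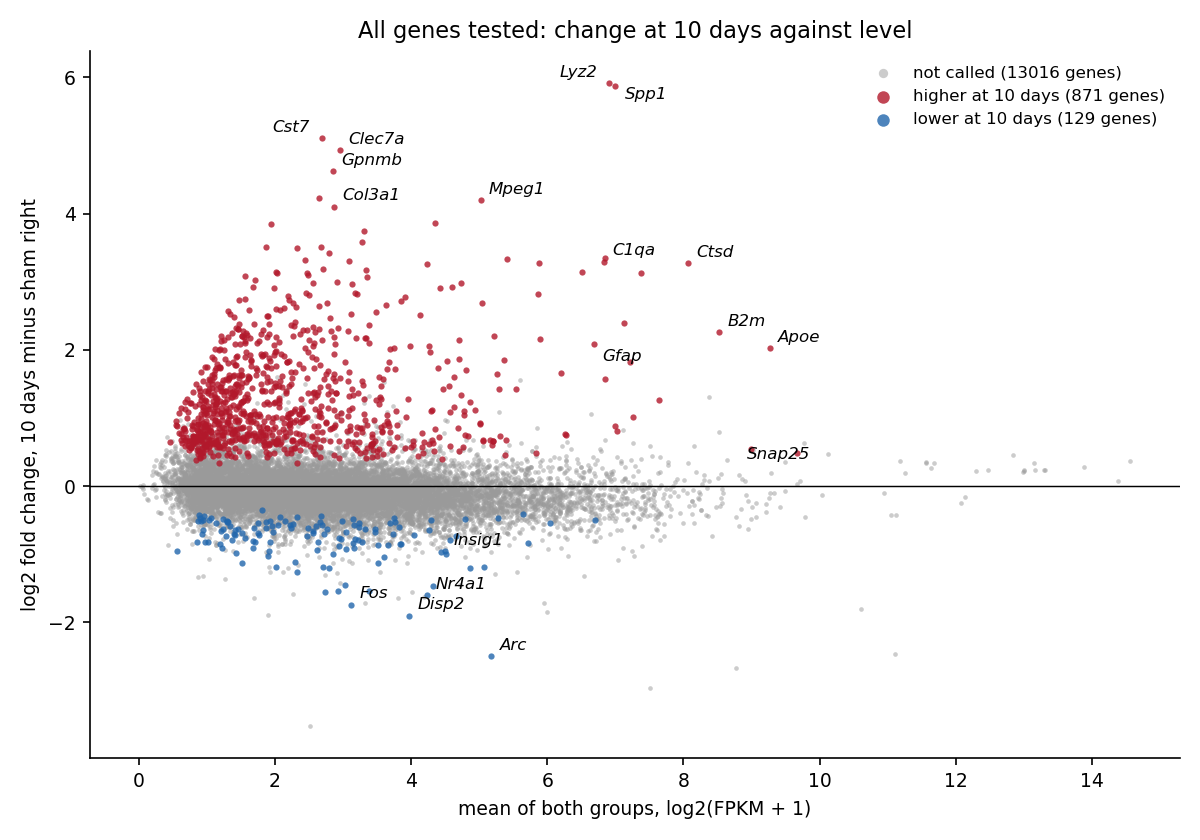
Difference of the lesion at 10 days minus sham right on the log2(FPKM + 1) scale (vertical axis) against the mean level over the 6 libraries (horizontal axis), a point per tested gene, with the called genes coloured. The 871 higher genes reach 5.92 (Lyz2) while the 129 lower genes end at -2.50 (Arc).

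The largest rise was that of Lyz2, the lysozyme of macrophages and other myeloid cells (ENSMUSG00000069516, chr10:117277331-117282321 on GRCm38). It had 624, 512 and 1900 FPKM at 10 days, against 15.1, 9.42 and 15.5 FPKM in sham right. Every lesion library lay far above the sham libraries and library 5 was the highest. The means were 1012 ± 771 FPKM at 10 days and 13.3 ± 3.39 FPKM in sham right (SD, n = 3 each), with a log2 difference of 5.92 ± 0.47, adjusted p = 3.45e-07. Without library 5 the difference was 5.33, so its call did not rest on that library.

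Spp1, which encodes the secreted phosphoprotein osteopontin (chr5:104435118-104441050), had 502, 432 and 2468 FPKM at 10 days, against 11.5, 10.3 and 18.1 FPKM in sham right. Here too the groups did not overlap and library 5 was several times above the other lesion libraries (log2 difference 5.87 ± 0.50, adjusted p = 7.02e-07). Cst7 (chr2:150570415-150578944) encodes cystatin F, an inhibitor of lysosomal cathepsins. It had 36.2, 33.5 and 41.5 FPKM at 10 days, against 0.124, 0.0892 and 0.10 FPKM in sham right, which is near 0 in sham tissue and closely alike in the 3 lesion libraries. Its log2 difference of 5.1 ± 0.18, adjusted p = 6.9e-11 had the smallest adjusted p of all tested genes.

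Clec7a encodes dectin-1, a lectin receptor of phagocytes, and is listed in the annotation as a polymorphic pseudogene. It had 30.9, 23.8 and 80.1 FPKM at 10 days, against 0.369, 0.261 and 0.31 FPKM in sham right (log2 difference 4.93 ± 0.31, adjusted p = 4.75e-08). Gpnmb, a glycoprotein of lysosomes in lipid-laden phagocytes, had 26.9, 18.4 and 67.1 FPKM at 10 days, against 0.504, 0.318 and 0.243 FPKM in sham right (4.62 ± 0.37, adjusted p = 3.09e-07). In both genes each lesion value exceeded each sham value and library 5 was the highest. Lgals3, the galactose-binding lectin galectin-3, had 23.3, 20.2 and 35.5 FPKM at 10 days, against 0.80, 0.236 and 0.28 FPKM in sham right. Each lesion library exceeded each sham library in Lgals3 (4.23 ± 0.34, adjusted p = 3.28e-07). Mpeg1, a pore-forming protein of macrophages, had 132, 107 and 179.8 FPKM at 10 days, against 6.81, 5.87 and 6.79 FPKM in sham right (4.2 ± 0.20, adjusted p = 4.79e-09), so that a transcript that was already present in sham tissue was high in all 3 lesions. Cd5l, a protein secreted by macrophages, was at 18.5, 10.8 and 11.9 FPKM at 10 days and listed at 0 in all sham right libraries (adjusted p = 1.02e-08). Among the 12 largest rises were also Cd52, a short surface glycoprotein of leukocytes (3.58 ± 0.26, adjusted p = 1.79e-07), and Bcl2a1b, an anti-apoptotic gene of hematopoietic cells whose value is uncertain because it has near-identical copies (3.74 ± 0.30, adjusted p = 3.28e-07).

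**Figure D2:**
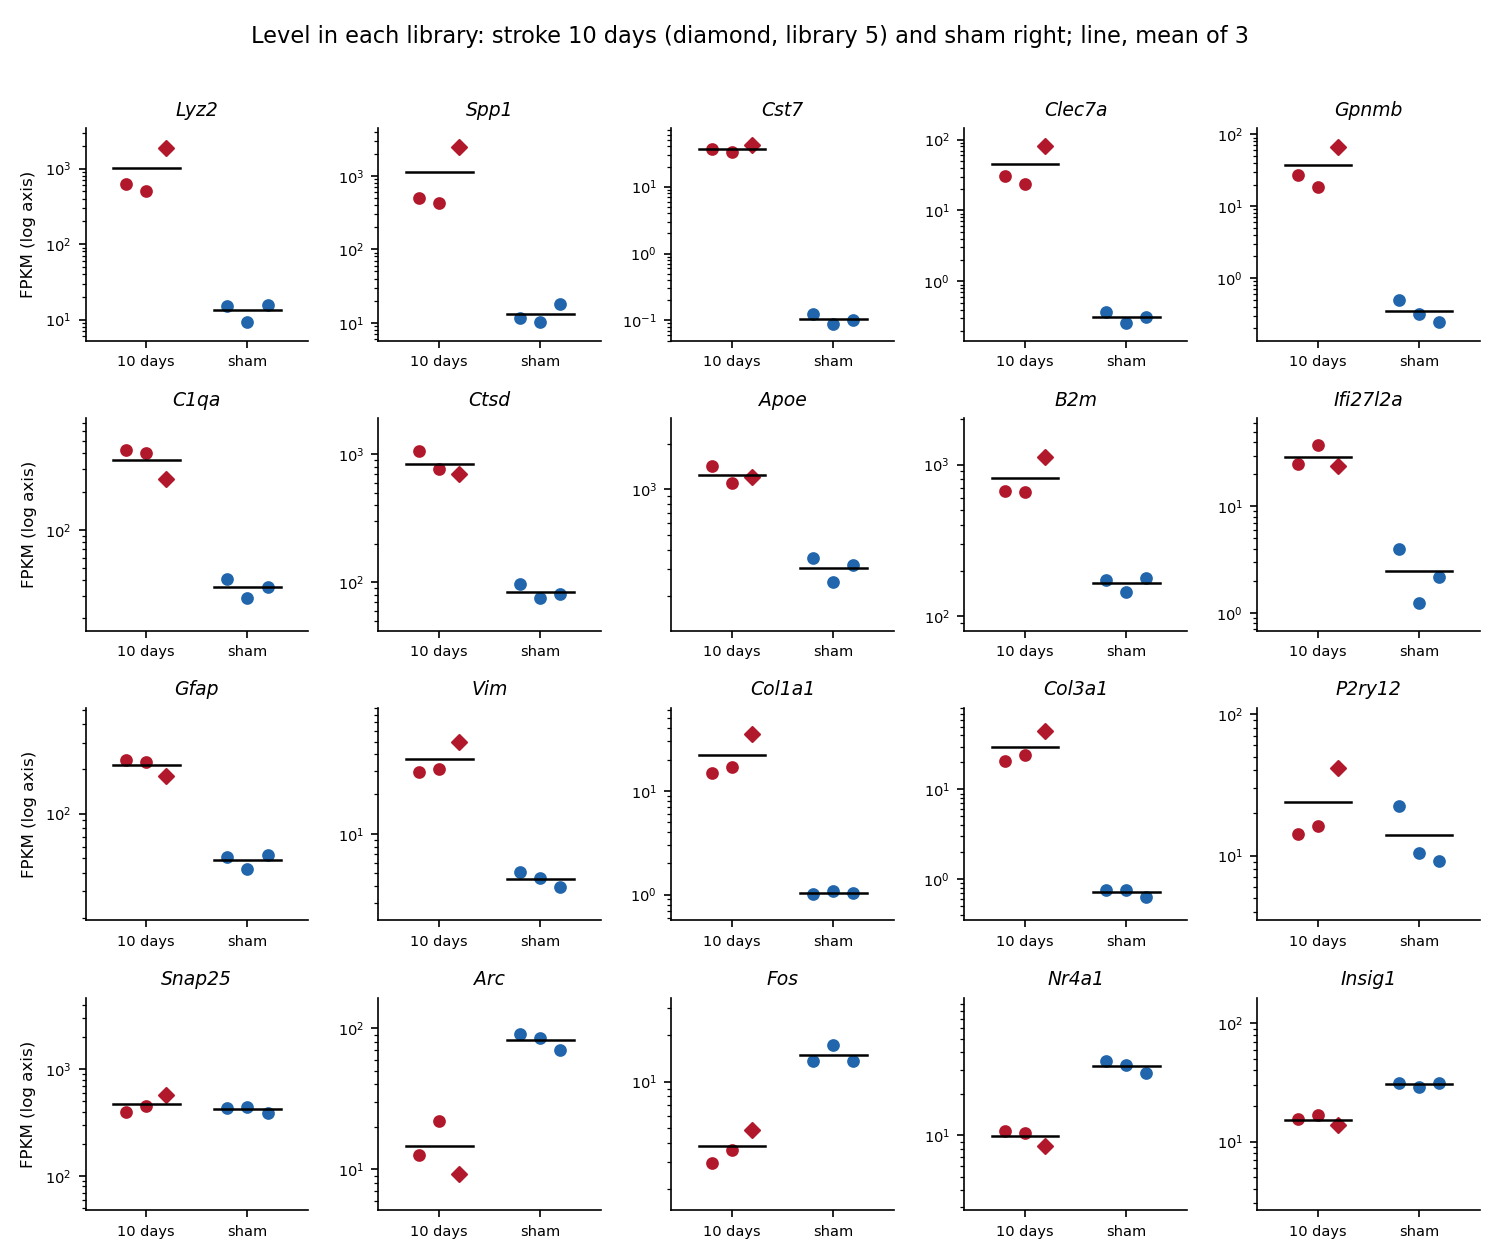
FPKM (log axis) of 20 named genes in each library, with the 10-day lesion left of sham right, a diamond for library 5 and a line at the mean of 3. Lyz2 reaches 1900 FPKM in library 5 at 10 days against at most 15.5 FPKM in sham right, while Arc, Fos, Nr4a1 and Insig1 lie lower in all lesion libraries.

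Genes known from activated microglia were higher as a group, though values of bulk tissue do not assign the rise to these cells. Of the disease-associated microglia list, genes that microglia express near damaged or degenerating tissue, 19 of 19 tested members rose, with a median difference of 2.22 against -0.07 over all genes, and all 19 rose without library 5. The count was 18 without sham right 1. Members such as Cst7 were under 1 FPKM in all sham libraries and passed the filter through lesion libraries. Trem2, a lipid-sensing receptor of microglia, had 28, 25.2 and 18.1 FPKM at 10 days, against 2.65, 2.17 and 2.57 FPKM in sham right (2.82 ± 0.19, adjusted p = 8.24e-08). The sham libraries lay close together and the lesion libraries all lay well above them, with library 5 the lowest of the 3.

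Markers of homeostatic microglia, which are known to be lowered by strong activation, were not called lower in the bulk tissue. Levels per cell cannot be read from these values. Of 13 tested members 7 rose and 0 fell (median 1.21), and 8 rose without library 5. Fcrls, an Fc-receptor-like protein of resident microglia, had 98.8, 82 and 69.4 FPKM at 10 days, against 11.7, 12.1 and 12.1 FPKM in sham right (2.69 ± 0.24, adjusted p = 1.07e-06). The lesion values formed a group far above sham. Csf1r, the receptor on which microglia depend for survival, differed by 1.87 ± 0.16, adjusted p = 6.88e-07, and Gpr34, a lysophospholipid receptor, by 1.83 ± 0.29, adjusted p = 0.000464. In contrast, the receptor P2ry12, through which resting microglia sense nucleotides, had 14.2, 16.1 and 41.8 FPKM at 10 days, against 22.5, 10.48 and 9.19 FPKM in sham right. Its library 5 was high while libraries 1 and 2 lay among the sham values, and the gene was not called (0.67 ± 0.40, adjusted p = 0.372). Tmem119, a surface protein of resident microglia, had 18, 19 and 7.86 FPKM at 10 days, against 8.67, 5.95 and 7.12 FPKM in sham right, with library 5 inside the sham range (0.87 ± 0.27, adjusted p = 0.0671). The fractalkine receptor Cx3cr1 had 10.0, 8.62 and 3.09 FPKM at 10 days, against 2.2, 1.12 and 4.2 FPKM in sham right, also with an overlap (1.21 ± 0.57, adjusted p = 0.257).

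Of the macrophage and scavenger receptor list, 10 of 13 tested members rose and 0 fell (median 2.01), and 8 rose without library 5 or any 1 of the sham libraries. Members such as Cd5l were under 1 FPKM in all sham libraries and passed the filter through lesion libraries, while 4 members stayed under the filter. Cd68, a lysosomal glycoprotein of phagocytes, had 70.5, 47.5 and 121 FPKM at 10 days, against 3.36, 4.73 and 4.43 FPKM in sham right (3.87 ± 0.29, adjusted p = 1.92e-07), and Adgre1, the F4/80 antigen of mouse macrophages, had 15.9, 13.9 and 16.7 FPKM at 10 days, against 1.57, 2.12 and 2.27 FPKM in sham right (2.47 ± 0.17, adjusted p = 1.32e-07). The lesion values of both genes lay above all sham values. Arg1, an arginase made by a subset of macrophages, was under 1 FPKM in all 6 libraries and was not called, with 0.12, 0.211 and 0.312 FPKM at 10 days, against 0.137, 0.0378 and 0.0654 FPKM in sham right (0.17 ± 0.30, adjusted p = 0.792). The summed level of the 17 markers in the files was 767, 616 and 2116 FPKM at 10 days against 32.0, 27.9 and 34.3 FPKM in sham right. Lyz2, described above, made up 81.3%, 83.1% and 89.8% of the lesion sums, and the other 16 markers summed to 143, 104.0 and 216 FPKM at 10 days against 16.9, 18.5 and 18.8 FPKM in sham right. Microglia express many of these genes, so the sum does not separate entering macrophages from resident cells.

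Every tested Fc receptor and signalling gene (12 of 12, median 2.25, 12 without library 5) was higher in the lesion, against 6.21% of all tested genes. These genes carry the receptors by which phagocytes bind antibody-coated material. Fcer1g, their shared signalling chain, had 111, 81.4 and 229 FPKM at 10 days, against 12.9, 10.23 and 12.4 FPKM in sham right. Fcer1g was thus raised in the whole lesion group, with no overlap (3.33 ± 0.33, adjusted p = 3.57e-06). Fcgr4, an activating receptor, had 7.83, 6.46 and 11.1 FPKM at 10 days, against 0.175, 0.0609 and 0.176 FPKM in sham right. No lesion value of Fcgr4 overlapped the sham values (3.03 ± 0.25, adjusted p = 4.67e-07). The inhibitory receptor Fcgr2b differed by 3.13 ± 0.28, adjusted p = 1.22e-06 and Fcgr3 by 2.98 ± 0.31, adjusted p = 4.59e-06; the lesion values did not overlap the sham values in any of these. The Fcgr genes are related in sequence and can share reads. Fcgr4 was under 1 FPKM in all sham libraries and passed the filter through lesion libraries.

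Complement genes were higher in 13 of 15 cases with 0 lower (median 1.89, 13 higher without library 5). The 3 chains of C1q, the recognition molecule that starts the classical pathway and is made by microglia in the brain, moved together. C1qa had 423, 400.4 and 251 FPKM at 10 days, against 40.9, 28.8 and 35.5 FPKM in sham right (3.29 ± 0.25, adjusted p = 2.44e-07), and C1qb and C1qc differed by 3.35 ± 0.25, adjusted p = 2.19e-07, and 3.28 ± 0.24, adjusted p = 1.71e-07. In each of the 3 genes all lesion values were several times the sham values, and library 5 was the lowest lesion value of C1qa and C1qc. C3, the central component that tags surfaces, stood far lower, with 3.39, 3.06 and 4.16 FPKM at 10 days, against 0.147, 0.0299 and 0.234 FPKM in sham right. C3 values of the groups did not overlap (1.99 ± 0.23, adjusted p = 1.31e-05). C3ar1, the receptor for a fragment of C3, had 12.6, 10.12 and 26.9 FPKM at 10 days, against 0.35, 0.436 and 0.496 FPKM in sham right. C3ar1 was higher in all lesion libraries than in any sham library (3.5 ± 0.30, adjusted p = 6.9e-07).

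Genes of lysosomal degradation rose broadly. Of 25 tested lysosomal proteases and hydrolases 21 rose and 0 fell (median 1.64), and 20 rose without library 5 or any 1 of the sham libraries. Cathepsin D (Ctsd, chr7:142375911-142388038), an aspartic protease of lysosomes, had 1059, 765 and 696 FPKM at 10 days, against 96.8, 76 and 81.7 FPKM in sham right. It was among the most abundant of the named transcripts in the lesion, with means of 839.7 ± 193 FPKM at 10 days and 84.8 ± 10.7 FPKM in sham right (SD, n = 3 each), and library 1 was the highest (3.28 ± 0.18, adjusted p = 1.48e-08). Cathepsin S (Ctss), a cysteine protease of antigen-presenting cells, had 507, 468 and 495 FPKM at 10 days, against 60.8, 47.5 and 58 FPKM in sham right, with the lesion libraries alike (3.13 ± 0.23, adjusted p = 1.9e-07). Ctsz, another cysteine cathepsin, differed by 2.82 ± 0.17, adjusted p = 4.65e-08, and Grn, which encodes progranulin, a lysosomal cofactor, by 2.5 ± 0.20, adjusted p = 3.99e-07.

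The list of lysosomal membrane and proton pump genes was mixed, with 6 of 15 tested members higher and 0 lower (median 0.44), and 7 higher without library 5. Beside Cd68, these include Slc11a1, a metal transporter of phagosomes, with 5.91, 4.41 and 5.45 FPKM at 10 days, against 0.444, 0.368 and 0.306 FPKM in sham right. Each lesion library exceeded each sham library in Slc11a1 (2.18 ± 0.16, adjusted p = 1.78e-07). Atp6v0d2, a proton pump subunit found in macrophages and osteoclasts, had 1.73, 1.32 and 9.5 FPKM at 10 days, against 0, 0.0162 and 0 FPKM in sham right. Its sham values are at or near 0 and library 5 lies far above the others, so its difference of 2.01 ± 0.36, adjusted p = 0.00126 was 1.32 without that library (adjusted p = 1.5e-06). Cd63, a tetraspanin of late endosomes, had 48.3, 47.5 and 29 FPKM at 10 days, against 17.2, 13.1 and 16.5 FPKM in sham right. Cd63 was thus raised in the whole lesion group, with no overlap (1.33 ± 0.28, adjusted p = 0.00562). The common pump subunit Atp6v1a was not called, at -0.05 (adjusted p = 0.875).

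Many lysosomal genes carry in their promoters the letters CACGTG, the core recognised by TFEB, a transcription factor known to drive lysosome formation. The 250 bases before each start were searched on both strands in the RefSeq promoter table (GRCm38.p6); the motif is its own reverse complement. It was found in 7 of 20 matched genes of the hydrolase list (35.0%), in 6 of the 16 of them that rose, in 3 of 12 matched lysosomal membrane genes and in 6.86% of all 27025 genes of the table. The sequences are given in the direction of the gene with the motif in capitals, for 4 genes that rose and 1 that did not, to show that a match is only a description of the letters.
Ctsd: tccccCACGTGacctgtatccagtca
Glb1: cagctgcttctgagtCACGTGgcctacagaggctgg
Lgmn: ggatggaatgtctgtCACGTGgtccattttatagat
Lamp1: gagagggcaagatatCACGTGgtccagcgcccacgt
Gaa: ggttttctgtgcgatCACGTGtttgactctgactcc
They lie at chr7:142388052-142388077 on the minus strand for Ctsd, chr9:114401015-114401050 on the plus strand for the galactosidase Glb1, chr12:102439121-102439156 on the minus strand for the protease legumain (Lgmn), chr8:13159085-13159120 on the plus strand for the membrane glycoprotein Lamp1 and chr11:119267808-119267843 on the plus strand for the acid glucosidase Gaa. Glb1 differed by 0.97 ± 0.13 (adjusted p = 9.65e-05), Lgmn by 1.66 ± 0.16 (adjusted p = 2.01e-06) and Lamp1 by 1.01 ± 0.16 (adjusted p = 0.000509). Gaa, which holds the same letters, was not called, at -0.38 ± 0.25 (adjusted p = 0.42). These genes were chosen for their promoter letters.

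Genes of lipid efflux and storage rose in 11 of 16 tested members with 0 lower (median 1.34), and in 10 without library 5, sham right 1 or sham right 3. Apolipoprotein E (Apoe), the main carrier of cholesterol between brain cells, had 1417, 1106 and 1199 FPKM at 10 days, against 354, 245 and 320.0 FPKM in sham right. All lesion values lay far above all sham values, with means of 1241 ± 159.5 FPKM at 10 days and 306 ± 55.6 FPKM in sham right (SD, n = 3 each) and a difference of 2.02 ± 0.20, adjusted p = 2.82e-06. Apoc1, a small apolipoprotein encoded beside Apoe, had 26.9, 17.3 and 5.78 FPKM at 10 days, against 0.575, 0.852 and 0.86 FPKM in sham right (3.1 ± 0.35, adjusted p = 1.23e-05), and library 5 was the lowest lesion value there. Apoc2, the cofactor of lipoprotein lipase from the same gene cluster, was at 10.8, 6.68 and 5.62 FPKM at 10 days and listed at 0 in every sham right library (adjusted p = 5.67e-08).

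The lipid droplet coat protein perilipin 2 (Plin2) had 20.9, 10.9 and 17.8 FPKM at 10 days, against 1.65, 1.84 and 1.43 FPKM in sham right (2.69 ± 0.27, adjusted p = 4.05e-06). The cholesterol exporter Abca1 had 27.1, 21.1 and 44.6 FPKM at 10 days, against 3.18, 4.09 and 4.24 FPKM in sham right (2.66 ± 0.30, adjusted p = 9.8e-06). Lipoprotein lipase (Lpl), which frees fatty acids from lipoproteins, had 12, 10.15 and 22.7 FPKM at 10 days, against 2.15, 2.75 and 2.07 FPKM in sham right (2.19 ± 0.24, adjusted p = 1.02e-05). In all 3 genes the groups were clearly apart, and library 5 was the highest lesion value of Abca1 and Lpl but not of Plin2.

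Sterol and fatty acid synthesis moved the other way. Of 19 tested members of this list 10 fell and 0 rose (median -0.72), and 8 fell without library 5. The fewest, 6, fell when sham right 1 or sham right 2 was left out. Insig1, a sterol-sensing protein of the endoplasmic reticulum that is itself a target of sterol-regulated transcription (chr5:28071363-28078662), had 15.4, 16.8 and 13.8 FPKM at 10 days, against 31.6, 29 and 31.4 FPKM in sham right. The values of each group lie close together and the groups are apart, with means of 15.3 ± 1.51 FPKM at 10 days and 30.6 ± 1.44 FPKM in sham right (SD, n = 3 each; -0.96 ± 0.12, adjusted p = 3.62e-05). Idi1, an isomerase of the isoprenoid pathway, had 14.2, 14.9 and 14.4 FPKM at 10 days, against 31.8, 27 and 29.5 FPKM in sham right. Idi1 was lower in all lesion libraries than in any sham library (-0.97 ± 0.17, adjusted p = 0.00112). Mvd, a decarboxylase of the same pathway that was among the 12 largest falls although it is not on the list, had 4.93, 4.37 and 1.75 FPKM at 10 days, against 10.0, 8.83 and 8.9 FPKM in sham right (-1.21 ± 0.22, adjusted p = 0.00141), with library 5 the lowest.

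Antigen presentation genes of class I, which display peptides on all nucleated cells, rose in 9 of 11 cases with 0 lower (median 0.89), in 10 without library 5 and in 8 without sham right 2. B2m, the light chain shared by class I molecules, had 669.9, 663 and 1124 FPKM at 10 days, against 172, 145 and 178 FPKM in sham right (2.27 ± 0.21, adjusted p = 1.85e-06). The heavy chains H2-D1 and H2-K1 differed by 2.2 ± 0.19, adjusted p = 7.13e-07, and 2.05 ± 0.21, adjusted p = 3.65e-06. In these 2 genes library 5 was the lowest lesion value, whereas it was the highest in B2m, and all lesion values exceeded all sham values. Psmb8, an immunoproteasome subunit, differed by 1.4 ± 0.20, adjusted p = 0.000152. The H2 genes resemble one another and can share reads.

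Of the class II list, the molecules by which professional antigen-presenting cells show peptides to helper T cells, 8 of 8 tested members rose (median 1.77), and 8 rose without library 5. The count was 7 without sham right 1, sham right 2 or library 1 at 10 days, and 2 further members were under the filter. Cd74, the invariant chain, had 16, 17.3 and 24.7 FPKM at 10 days, against 3.02, 1.53 and 7.41 FPKM in sham right (2.18 ± 0.45, adjusted p = 0.0041). H2-Aa had 8.68, 8.05 and 12.9 FPKM at 10 days, against 1.27, 1.06 and 3.38 FPKM in sham right (1.97 ± 0.37, adjusted p = 0.00202), and H2-Ab1 differed by 1.82 ± 0.30, adjusted p = 0.000523. Sham right 3 was the highest sham library in all 3, and it stayed below every lesion value. The costimulatory ligand Cd86 had 5.7, 4.51 and 8.4 FPKM at 10 days, against 0.929, 0.811 and 0.753 FPKM in sham right. Cd86 values of the groups did not overlap (1.94 ± 0.19, adjusted p = 2.51e-06).

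Lymphocyte and neutrophil genes were mostly near the limit of measurement. Of 20 lymphocyte markers in the files, 12 were under 1 FPKM in all lesion libraries. Cd3e, a chain of the T cell receptor complex, had 0.0475, 0.0442 and 0.153 FPKM at 10 days, against 0, 0.0108 and 0.0414 FPKM in sham right and was under the filter. Also under the filter, Cd8a had 0.289, 0.57 and 0.964 FPKM at 10 days against 0.0304, 0.0242 and 0 FPKM in sham right. Both were higher in every lesion library than in any sham library. So were Cd3d, Cd3g, Cd8b1, Cd2, Lck, Cd79b, Jchain, Nkg7 and Gzmb, while Cd79a and Ms4a1 overlapped. Values of the groups that lie apart were found for 27% of all tested genes. These low values were not tested. The summed level of the list was 75.3, 77.0 and 79.9 FPKM at 10 days against 54.1, 40.7 and 41.7 FPKM in sham right. Without Trbc2, a T cell receptor constant gene and the most abundant of them, it was 37.3, 37.1 and 60.8 FPKM at 10 days against 18.5, 14.3 and 16.02 FPKM in sham right. Of 6 tested members 3 rose and 0 fell (median 0.72), and 2 rose without library 5 or any 1 of the sham libraries. The 3 that rose in the main fit are Igkc, Ccl5 and Ighm. Igkc, an immunoglobulin light chain constant gene, had 3.99, 7.83 and 18.1 FPKM at 10 days, against 2.32, 0.305 and 0.416 FPKM in sham right. Igkc was higher in all lesion libraries than in any sham library (2.37 ± 0.51, adjusted p = 0.00668). Ccl5, a chemokine of T cells and other leukocytes, had 4.4, 3.86 and 1.62 FPKM at 10 days, against 0.296, 0 and 0.381 FPKM in sham right (1.75 ± 0.21, adjusted p = 2.7e-05). Ighm, the heavy chain of IgM, had 22.1, 17.3 and 28.5 FPKM at 10 days, against 13.3, 12 and 12.3 FPKM in sham right (0.77 ± 0.21, adjusted p = 0.0349). The call of Ighm ended in 5 of the 6 fits that leave out 1 library (all except that without library 2 at 10 days, with an adjusted p up to 0.176). Of the 11 neutrophil markers 7 were under 1 FPKM in all lesion libraries, among them Ly6g and Mpo, and 1 of 4 tested members rose. That gene was Csf3r, the receptor for granulocyte colony-stimulating factor, which microglia and macrophages also express. It had 8.44, 5.63 and 9.16 FPKM at 10 days, against 0.899, 0.924 and 1.14 FPKM in sham right (2.11 ± 0.20, adjusted p = 1.85e-06). The summed neutrophil level was 14.9, 9.87 and 16.1 FPKM at 10 days against 6.80, 1.87 and 2.77 FPKM in sham right, and without Csf3r 6.45, 4.24 and 6.98 FPKM at 10 days against 5.90, 0.95 and 1.63 FPKM in sham right.

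Interferon-stimulated genes rose in 12 of 17 cases with 0 lower (median 1.01), in 10 without library 5 and in 8 without sham right 2. Ifi27l2a, a small protein induced by type I interferon, had 25.1, 37.5 and 24 FPKM at 10 days, against 3.97, 1.23 and 2.15 FPKM in sham right (3.17 ± 0.35, adjusted p = 8.91e-06). Bst2, known as tetherin, a membrane protein that holds back virus particles, had 29.1, 33.9 and 14.1 FPKM at 10 days, against 9.45, 2.75 and 5.01 FPKM in sham right (2.02 ± 0.38, adjusted p = 0.00204). Sham right 1 had the highest sham value of both genes and still lay below all lesion values. Oas1a, an enzyme that senses double-stranded RNA, had 3.56, 4.72 and 4.35 FPKM at 10 days, against 1.66, 0.385 and 0.383 FPKM in sham right (1.59 ± 0.23, adjusted p = 0.00016), and the guanylate-binding protein Gbp2 differed by 1.38 ± 0.23, adjusted p = 0.000533. Ifit3, a classical target of interferon signalling, had 21.6, 28.5 and 17.9 FPKM at 10 days, against 14.1, 5.61 and 7.73 FPKM in sham right (1.29 ± 0.30, adjusted p = 0.011); its call ended without sham right 2 (adjusted p = 0.0801) or sham right 3 (adjusted p = 0.0509). Ifitm3, a membrane protein that blocks the entry of viruses, had 43.1, 41.4 and 32.1 FPKM at 10 days, against 23.4, 13.2 and 17.3 FPKM in sham right (1.1 ± 0.23, adjusted p = 0.00459).

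The letters GAAA, any 2 bases and GAAA again, the core of the interferon-stimulated response element, were searched on both strands of the same 250 bases. This motif was added after the results of the list were seen. It was found in 9 of 14 matched genes of the list (64.3%), in 5 of the 9 of them that rose and in 3.46% of all genes of the table. Below, capitals mark the motif, which reads TTTC, 2 bases and TTTC where it lies on the other strand, in 4 genes that rose and in Isg15, which did not.
Oas1a: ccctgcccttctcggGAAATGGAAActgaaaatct
Bst2: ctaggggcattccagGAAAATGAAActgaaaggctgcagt
Ifit3: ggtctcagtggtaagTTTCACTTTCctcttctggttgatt
Gbp3: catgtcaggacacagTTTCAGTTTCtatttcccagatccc
Isg15: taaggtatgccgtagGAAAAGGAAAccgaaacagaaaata
They lie at chr5:120907526-120907560 on the minus strand (Oas1a), chr8:71537578-71537617 on the minus strand (Bst2), chr19:34583358-34583397 on the plus strand (Ifit3), chr3:142559984-142560023 on the plus strand (Gbp3) and chr4:156200872-156200911 on the minus strand (Isg15). Gbp3, a further guanylate-binding protein, differed by 1.1 ± 0.24 (adjusted p = 0.00579), and the ubiquitin-like protein Isg15, with the same letters, by 0.22 ± 0.50 (adjusted p = 0.842).

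Cytokine and chemokine genes rose in 12 of 16 tested members with 0 lower (median 1.67). The largest rises were those of chemokines that attract monocytes and other leukocytes. Ccl3 had 7.14, 8.18 and 19.6 FPKM at 10 days, against 0.144, 0.404 and 0.37 FPKM in sham right (3.15 ± 0.39, adjusted p = 3.15e-05). Ccl12 had 12.2, 11.3 and 18.3 FPKM at 10 days, against 1.97, 0.73 and 0.791 FPKM in sham right. Each lesion library exceeded each sham library in Ccl12 (2.8 ± 0.43, adjusted p = 0.0003). Ccl6 and Ccl4 differed by 2.64 ± 0.31, adjusted p = 1.6e-05, and 2.38 ± 0.34, adjusted p = 0.00013. Library 5 was the highest lesion value of Ccl3 and the lowest of Ccl4, and the groups did not overlap in either. Neighbouring Ccl genes are related copies and can share reads. The early inflammatory cytokines Il6 and Tnf did not pass the filter and stayed under 0.5 FPKM in the 6 libraries.

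Genes of reactive astrocytes were higher in part. Of 17 tested reactive astrocyte genes 9 rose and 1 fell (median 0.77). The counts were 8 and 0 without library 5, and 7 and 0 without sham right 1 or sham right 3. Gfap, the intermediate filament of astrocytes (chr11:102887336-102900912), had 230.1, 223 and 179 FPKM at 10 days, against 51.1, 42.7 and 53 FPKM in sham right. The lesion libraries were alike and all above sham, with means of 210.4 ± 27.9 FPKM at 10 days and 49 ± 5.47 FPKM in sham right (SD, n = 3 each; 2.08 ± 0.26, adjusted p = 3.14e-05). Vimentin (Vim), a filament of reactive astrocytes and of mesenchymal cells, had 29.3, 30.8 and 50.1 FPKM at 10 days, against 5.13, 4.62 and 3.97 FPKM in sham right. Vim was thus raised in the whole lesion group, with no overlap (2.72 ± 0.24, adjusted p = 9.38e-07). Serpina3n, a secreted protease inhibitor, had 60.3, 48.6 and 64.2 FPKM at 10 days, against 6.74, 6.65 and 7.06 FPKM in sham right. No lesion value of Serpina3n overlapped the sham values (2.9 ± 0.29, adjusted p = 3.37e-06). Lipocalin 2 (Lcn2), an iron-carrier-binding protein secreted by reactive glia, had 9.63, 5.24 and 8.81 FPKM at 10 days, against 0.233, 0.142 and 0.075 FPKM in sham right. Lcn2 values of the groups did not overlap (2.92 ± 0.30, adjusted p = 4.25e-06). Timp1, an inhibitor of matrix metalloproteases, differed by 2.34 ± 0.48, adjusted p = 0.00394. Gap43, a growth cone protein that stands on this list and on the neuronal one, was the member that fell, with 93, 96.2 and 72.6 FPKM at 10 days, against 128, 121 and 119.7 FPKM in sham right (-0.50 ± 0.14, adjusted p = 0.0324); its call ended when sham right 1, 2 or 3 or library 5 was left out (adjusted p up to 0.129).

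Of 16 tested homeostatic astrocyte genes 0 rose and 0 fell (median -0.18). The water channel of astrocyte endfeet, Aqp4, had 41.9, 42.7 and 53.4 FPKM at 10 days, against 33.1, 35.4 and 42.9 FPKM in sham right; sham right 3 lay among the lesion values (0.30 ± 0.17, adjusted p = 0.345).

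Several collagen genes were higher. Of 14 tested collagens 7 rose and 0 fell (median 0.91). The count was 5 without library 5, library 2 at 10 days or any 1 of the sham libraries. Col3a1, a fibrillar collagen of soft tissue (chr1:45311538-45349706), had 21, 24 and 45 FPKM at 10 days, against 0.747, 0.764 and 0.624 FPKM in sham right, and Col1a1, the main chain of collagen I (chr11:94936224-94953042), had 15, 17 and 35.1 FPKM at 10 days, against 1.02, 1.08 and 1.03 FPKM in sham right. In both genes the sham libraries agreed closely with one another, the lesion libraries all lay above them and library 5 was the highest. The differences were 4.1 ± 0.38, adjusted p = 1.59e-06 for Col3a1 and 3.42 ± 0.40, adjusted p = 1.54e-05 for Col1a1. Col1a2, the partner chain of Col1a1, differed by 3.19 ± 0.40, adjusted p = 3.23e-05, and Col5a2, a minor fibrillar collagen, by 1.63 ± 0.24, adjusted p = 0.000159.

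Of 21 tested genes of scar matrix and its remodelling 16 rose and 0 fell (median 1.35), with 12 higher without library 5 and 11 without sham right 2. The metalloprotease stromelysin 1 (Mmp3) had 8.13, 6.38 and 21.9 FPKM at 10 days, against 0, 0.0488 and 0 FPKM in sham right (3.51 ± 0.38, adjusted p = 7.11e-06), and Mmp12, an elastase of macrophages, had 4.32, 2.6 and 9.27 FPKM at 10 days, against 0.0191, 0 and 0 FPKM in sham right (2.53 ± 0.40, adjusted p = 0.00042). Both are at or near 0 in all sham libraries. Lumican (Lum), a proteoglycan that binds collagen fibrils, had 14.4, 14.8 and 46.5 FPKM at 10 days, against 1.57, 1.79 and 2.35 FPKM in sham right. Lum was higher in all lesion libraries than in any sham library (2.97 ± 0.42, adjusted p = 0.000139). Fibronectin (Fn1), a matrix glycoprotein, had 8.4, 8.22 and 13.8 FPKM at 10 days, against 3.48, 3.26 and 3 FPKM in sham right. Each lesion library exceeded each sham library in Fn1 (1.36 ± 0.25, adjusted p = 0.00182). Decorin (Dcn), another collagen-binding proteoglycan, had 12.8, 15.9 and 46 FPKM at 10 days, against 5.62, 4.78 and 5.43 FPKM in sham right, with library 5 far above the other lesion libraries. Its difference of 1.82 ± 0.42, adjusted p = 0.0107 was 1.28 without library 5 and not called (adjusted p = 0.0584).

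Fibroblast and meningeal markers moved in both directions: 4 of 11 tested members rose, 1 fell and the median was 0.50 (3 and 0 without library 5). Those that rose were Col1a1, Lum, Dcn and Islr, an adhesion protein of mesenchymal cells, with 7.61, 9.63 and 8.64 FPKM at 10 days, against 4.78, 4.29 and 3.99 FPKM in sham right. Islr was thus raised in the whole lesion group, with no overlap (0.85 ± 0.19, adjusted p = 0.00709). Slc6a13, a transporter for GABA in meningeal cells, fell, with 1.07, 1.53 and 0.709 FPKM at 10 days, against 2.16, 2.5 and 2.56 FPKM in sham right (-0.71 ± 0.18, adjusted p = 0.0172), a call that ended without sham right 2, sham right 3 or library 5 (adjusted p up to 0.0969). Pdgfra, a growth factor receptor of fibroblasts and oligodendrocyte precursors, was not called (5.05, 4.28 and 5.57 FPKM at 10 days, against 4.16, 3.99 and 3.91 FPKM in sham right; 0.24 ± 0.16, adjusted p = 0.408). The summed level of the 14 markers was 192, 212 and 284 FPKM at 10 days against 172, 169 and 166 FPKM in sham right. Most of the sham sum is Thy1, which neurons also express, at 119, 124 and 106 FPKM at 10 days against 138, 133 and 128 FPKM in sham right. Without it the other 13 markers summed to 73.1, 87.6 and 178 FPKM at 10 days against 34.2, 35.7 and 37.9 FPKM in sham right. The part of these cells in the collagen values was not tested.

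Of 14 tested genes of the TGF-beta pathway, a driver of fibrosis, 4 rose and 0 fell (median 0.28). Tgfb1, the ligand, had 2.8, 2.99 and 3.3 FPKM at 10 days, against 0.862, 0.505 and 0.541 FPKM in sham right. No lesion value of Tgfb1 overlapped the sham values (1.31 ± 0.13, adjusted p = 3.74e-06). Its receptor Tgfbr1 had 10.8, 10.8 and 13.2 FPKM at 10 days, against 5.13, 4.55 and 4.64 FPKM in sham right. The partner receptor Tgfbr2 had 8.14, 7.43 and 10.51 FPKM at 10 days, against 2.44, 2.12 and 2.03 FPKM in sham right. Both receptors were higher in every lesion library than in any sham library (1.12 ± 0.14, adjusted p = 3.82e-05 for Tgfbr1 and 1.59 ± 0.14, adjusted p = 1.26e-06 for Tgfbr2). Tgfbi, a matrix protein induced by the pathway, differed by 1.41 ± 0.29, adjusted p = 0.00369.

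Insulin-like growth factor genes rose in 4 of 10 cases (median 0.24; 2 without library 5 and 2 without any 1 of the sham libraries). Igf1, a growth factor made by microglia and macrophages in injured brain, had 7.75, 6.33 and 18.7 FPKM at 10 days, against 0.949, 1.01 and 1.14 FPKM in sham right. Igf1 values of the groups did not overlap (2.41 ± 0.26, adjusted p = 7.11e-06). The binding protein Igfbp7 differed by 1.09 ± 0.18, adjusted p = 0.000492. Igfbp5 had 37.2, 36.1 and 58.9 FPKM at 10 days, against 22.8, 22.1 and 21.7 FPKM in sham right (0.92 ± 0.23, adjusted p = 0.0179) and Igfbp3 had 3.84, 4.56 and 5.47 FPKM at 10 days, against 3.31, 2.9 and 2.75 FPKM in sham right (0.49 ± 0.14, adjusted p = 0.0399). The calls of Igfbp5 and Igfbp3 ended without any 1 of the sham libraries or without library 5, and that of Igfbp3 also without library 2, with adjusted p up to 0.10 and 0.17. Igfbp2, a binding protein of astrocytes and choroid plexus, had 26, 29.5 and 5.26 FPKM at 10 days, against 22.6, 18 and 20.8 FPKM in sham right and was not called (-0.31 ± 0.42, adjusted p = 0.725); library 5 was low while libraries 1 and 2 lay above sham, and without library 5 its value was 0.43.

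Lists of vessel genes differed in their share of calls, beside 7.13% called over all tested genes. Of 18 endothelial and barrier genes 0 rose and 0 fell (median 0.05). The tight junction protein Cldn5 had 22.5, 27.3 and 7.62 FPKM at 10 days, against 35.1, 26.1 and 28.7 FPKM in sham right, with library 5 low and libraries 1 and 2 near the sham range (-0.78 ± 0.36, adjusted p = 0.246). Of 10 tested genes of endothelial activation and angiogenesis 4 rose and 1 fell (median 0.47; 4 and 0 without library 5). Icam1, to which leukocytes adhere, had 2.52, 2.38 and 2 FPKM at 10 days, against 0.453, 0.332 and 0.377 FPKM in sham right. Icam1 was higher in all lesion libraries than in any sham library (1.25 ± 0.14, adjusted p = 1.29e-05). The phospholipid-binding annexin Anxa2 had 9.61, 11.1 and 14.1 FPKM at 10 days, against 3.3, 3.04 and 3.13 FPKM in sham right. Each lesion library exceeded each sham library in Anxa2 (1.59 ± 0.22, adjusted p = 0.000109). Nid1, a basement membrane linker, differed by 1.39 ± 0.21, adjusted p = 0.000215 and Ctla2a, a cathepsin inhibitor, by 1.27 ± 0.20, adjusted p = 0.000346. Vegfa, the main growth factor of vessels, fell, with 5.4, 4.64 and 3.4 FPKM at 10 days, against 8.24, 6.69 and 7.29 FPKM in sham right (-0.63 ± 0.18, adjusted p = 0.0449), but the call ended in 5 of 6 fits without 1 library, all except that without library 1 at 10 days (adjusted p up to 0.212). Of 10 pericyte and smooth muscle genes 1 rose, Anpep, a membrane aminopeptidase that myeloid cells and fibroblasts also carry (1.86, 1.78 and 4.81 FPKM at 10 days, against 0.601, 0.51 and 0.455 FPKM in sham right; 1.24 ± 0.22, adjusted p = 0.000957).

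Of 13 tested clotting and fibrinolysis genes 5 rose (median 0.52; 4 without library 5 and 3 without sham right 2). The plasminogen activator Plau had 5.07, 6 and 7.62 FPKM at 10 days, against 1.01, 0.991 and 1.03 FPKM in sham right. Plau was thus raised in the whole lesion group, with no overlap (1.83 ± 0.17, adjusted p = 1.74e-06). Its receptor Plaur differed by 0.74 ± 0.15, adjusted p = 0.00353. Anxa2, which also binds plasminogen, is on this list as well. Fgl2, a membrane prothrombinase of macrophages, differed by 1.49 ± 0.38, adjusted p = 0.0197 and the protease inhibitor Serpine2 by 0.52 ± 0.13, adjusted p = 0.0191. The call of Fgl2 ended without sham right 2, sham right 3 or library 5 (adjusted p up to 0.106), and that of Serpine2 without sham right 1, sham right 2, library 1 or library 5 (up to 0.135). Of 15 S100 and annexin genes, calcium-binding proteins, 6 rose (median 0.67). S100a4, a marker of mesenchymal and myeloid cells, had 21.8, 20.9 and 16.8 FPKM at 10 days, against 2.73, 2.28 and 2.75 FPKM in sham right (2.53 ± 0.24, adjusted p = 1.74e-06), S100a11 differed by 2.06 ± 0.36, adjusted p = 0.000918 and Anxa3 by 1.54 ± 0.18, adjusted p = 1.76e-05.

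Of 12 iron and heme genes 5 rose (median 0.55), Lcn2 among them. Heme oxygenase 1 (Hmox1), which breaks down heme from hemoglobin, had 13.1, 12.7 and 18 FPKM at 10 days, against 2.51, 1.81 and 2.24 FPKM in sham right. No lesion value of Hmox1 overlapped the sham values (2.28 ± 0.39, adjusted p = 0.000742). The ferritin light chain Ftl1, an iron store, had 237, 193 and 165 FPKM at 10 days, against 73.8, 53.1 and 70.9 FPKM in sham right (1.57 ± 0.32, adjusted p = 0.00334); it has pseudogene copies that can share reads. The iron exporter Slc40a1 differed by 0.73 ± 0.16, adjusted p = 0.00566, and ceruloplasmin (Cp), a copper enzyme that oxidises the exported iron, by 0.79 ± 0.18, adjusted p = 0.00805. The red cell genes had a summed level of 316, 394 and 122 FPKM at 10 days against 529, 409 and 461 FPKM in sham right, with 0 of 5 tested members called. Of 15 antioxidant and metallothionein genes 2 rose (median 0.23; 1 without library 5), Hmox1 and Mt1, a zinc-binding metallothionein, with 159, 124 and 239 FPKM at 10 days, against 97.7, 91.5 and 97.3 FPKM in sham right (0.80 ± 0.23, adjusted p = 0.0428). The call of Mt1 ended in 5 of 6 fits without 1 library, all except that without library 2 at 10 days (adjusted p up to 0.206), and against the left-side punches its difference was -0.11 (adjusted p = 0.816).

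Cell cycle genes were called in 3 of 17 cases, all higher (median 0.49), and in 0 without library 5. They were Mki67, a protein of dividing cells, with 1.4, 1.2 and 4.94 FPKM at 10 days, against 0.335, 0.364 and 0.39 FPKM in sham right (1.21 ± 0.31, adjusted p = 0.0225), the mitotic cyclin Ccnb2 (0.99 ± 0.25, adjusted p = 0.02) and the replication helicase subunit Mcm3 (0.64 ± 0.17, adjusted p = 0.029). Library 5 had the highest Mki67 value, and the count was also 0 without sham right 1 or without sham right 3. Of 14 genes of the unfolded protein response 1 rose, the chaperone Pdia4 (0.63 ± 0.17, adjusted p = 0.0332), in a call that ended in 5 of 6 fits without 1 library, all except that without library 2 at 10 days (adjusted p up to 0.131). Of 20 glycolysis and hypoxia genes 1 rose, the hexokinase Hk2 (2.87, 2.39 and 2.55 FPKM at 10 days, against 0.791, 0.553 and 0.544 FPKM in sham right; 1.15 ± 0.14, adjusted p = 3.12e-05), and 1 fell, Vegfa (1 and 0 without library 5).

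Falls were fewer and smaller than rises, and the largest was that of Arc, an immediate early gene. Neurons switch such genes on within minutes of activity. Of 19 tested members 10 fell and 1 rose (median -0.88), with 8 lower without library 5 and 7, the fewest, without sham right 2. Arc, which acts on synaptic receptors (chr15:74669083-74672570), had 12.6, 22 and 9.25 FPKM at 10 days, against 91.6, 85.8 and 70.6 FPKM in sham right. The groups were far apart, with means of 14.6 ± 6.61 FPKM at 10 days and 82.7 ± 10.9 FPKM in sham right (SD, n = 3 each), and the difference of -2.5 ± 0.26, adjusted p = 4.87e-06 was the largest fall of all called genes. The transcription factor Fos had 2.94, 3.56 and 4.85 FPKM at 10 days, against 13.6, 17.4 and 13.6 FPKM in sham right (-1.74 ± 0.27, adjusted p = 0.000291), and the nuclear receptor Nr4a1 had 10.8, 10.45 and 8.32 FPKM at 10 days, against 34.4, 32.5 and 28.5 FPKM in sham right (-1.6 ± 0.23, adjusted p = 0.000145). All lesion values of these 3 genes were below all sham values. Junb, a partner of Fos, had 13.5, 17.2 and 4.63 FPKM at 10 days, against 33.8, 31.1 and 26.6 FPKM in sham right, with library 5 the lowest; its difference of -1.46 ± 0.30, adjusted p = 0.00468 was -0.95 without library 5 (adjusted p = 0.00336). Egr4, a zinc finger factor, differed by -1.45 ± 0.36, adjusted p = 0.0163; the call ended without sham right 1, sham right 2 or library 5 (adjusted p up to 0.0814). The member that rose was Atf3, a transcription factor of cell stress and axon injury, with 3.38, 2.91 and 4.64 FPKM at 10 days, against 0.352, 0.262 and 0.159 FPKM in sham right. Atf3 values of the groups did not overlap (1.87 ± 0.20, adjusted p = 6.23e-06).

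Among the other large falls, Trp53i11, a p53-induced membrane protein, had 3.84, 4.27 and 0.99 FPKM at 10 days, against 11, 8.97 and 9.84 FPKM in sham right (-1.56 ± 0.29, adjusted p = 0.00185), with library 5 the lowest. The calls of the following genes depended on single libraries. Disp2, a membrane protein related to Dispatched and the next largest fall after Arc, had 21.2, 3.83 and 1.7 FPKM at 10 days, against 22.9, 23.5 and 24.7 FPKM in sham right (-1.9 ± 0.55, adjusted p = 0.0468), so that library 1 lay just under the sham values and libraries 2 and 5 far below. Its call ended in all 5 fits that left out a library other than library 1 at 10 days (adjusted p 0.111 to 0.264). The noncoding RNA Gm26917 (-1.54 ± 0.43, adjusted p = 0.0402), Hes5, a target of Notch signalling (-1.26 ± 0.35, adjusted p = 0.0375), and Nnat, a proteolipid of neurons (-1.2 ± 0.32, adjusted p = 0.0306), also lost their calls without library 5, among others, with an adjusted p of up to 0.214, 0.179 and 0.16.

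Neuronal lists held few calls. Of 18 pan-neuronal genes 0 rose and 1 fell, Gap43 (median -0.33). Without library 5 or any 1 of the sham libraries 0 fell, and without library 2 at 10 days 3 fell (median -0.47). The list's median level relative to the sham mean was -0.26, -0.12 and -0.71 log2 units in the lesion libraries and 0.05, 0.01 and -0.08 in the sham libraries, so library 5 was the lowest of the 6. Snap25, given above, was not called, with library 5 the highest of the 6 (0.16 ± 0.17, adjusted p = 0.649). Rbfox3, the neuronal nuclear antigen NeuN, had 25.6, 27.5 and 14.5 FPKM at 10 days, against 28.7, 30.8 and 24.7 FPKM in sham right (-0.35 ± 0.19, adjusted p = 0.328). Camk2a, a kinase of excitatory synapses, had 172, 181 and 112 FPKM at 10 days, against 204, 198 and 167 FPKM in sham right (-0.32 ± 0.16, adjusted p = 0.304). For both genes libraries 1 and 2 overlapped with sham and library 5 was the lowest value.

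Of 15 glutamate receptor and transport genes 0 were called (median -0.25), and the log2 difference was below 0 in all 15. Against the left-side punches their median was 0.12, with 1 called lower. The vesicular transporter Slc17a7 had 92.4, 92.8 and 67.5 FPKM at 10 days, against 115, 99.4 and 76.6 FPKM in sham right (-0.20 ± 0.16, adjusted p = 0.512). Of 19 GABA synapse and interneuron genes 1 fell (median -0.29; 0 without library 5), the calcium-binding protein calretinin (Calb2), with 6.55, 6.09 and 2.73 FPKM at 10 days, against 9.7, 19.8 and 21 FPKM in sham right (-1.54 ± 0.42, adjusted p = 0.0317), a call that ended without sham right 2, sham right 3 or library 5 (adjusted p up to 0.178). The GABA-synthesising enzyme Gad1 (32.9, 33.1 and 24.3 FPKM at 10 days, against 30.9, 34.4 and 32.5 FPKM in sham right; -0.13 ± 0.17, adjusted p = 0.721) and the calcium-binding protein parvalbumin (Pvalb; 97.3, 117 and 47.6 FPKM at 10 days, against 113, 114 and 122 FPKM in sham right; -0.50 ± 0.33, adjusted p = 0.419) overlapped with sham. Cortical layer (15 genes), striatal (12) and voltage-gated channel (15) lists held 0 calls in either direction, with medians of -0.08, -0.04 and -0.25. Of 19 axon growth genes 1 rose and 1 fell, Atf3 and Gap43 (1 and 0 without library 5, 2 and 2 without library 2 at 10 days). The log2 difference was below 0 in 16 of 18 pan-neuronal, 16 of 19 GABA synapse and 14 of 15 channel genes. It was below 0 in 9 of 15 cortical layer and 8 of 12 striatal genes. The fits did not distinguish most neuronal transcripts from sham at this spread, which does not show that the levels were equal.

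Myelin genes were not called (0 of 16, median -0.12). Myelin basic protein (Mbp) had 86.5, 87.4 and 57.5 FPKM at 10 days, against 127, 78.6 and 125 FPKM in sham right (-0.50 ± 0.32, adjusted p = 0.409), overlapping with sham. The lists of oligodendrocyte precursors (0 of 14, median 0.03), heat shock chaperones (0 of 13, median -0.24), perineuronal nets (0 of 13, median 0.03), ribosomal proteins (0 of 20, median 0.07), nuclear-encoded respiratory chain (0 of 20, median -0.29), mitochondrially encoded genes (0 of 13, median 0.24) and p53 targets (0 of 13, median 0.13) held no calls either. When 1 library of the lesion or sham group was left out, each of the lists without a call held at most 1. The median of the mitochondrially encoded genes lay at -0.13, -0.08 and 0.89 log2 units in the lesion libraries, which is high in library 5 only, and the nuclear-encoded respiratory chain at -0.10, -0.05 and -0.75. All 20 genes of the nuclear-encoded respiratory chain had a log2 difference below 0. The sign of the list median changed between the scalings tried for perineuronal net, cortical layer, striatal, oligodendrocyte precursor and unfolded protein response genes.

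**Figure D3:**
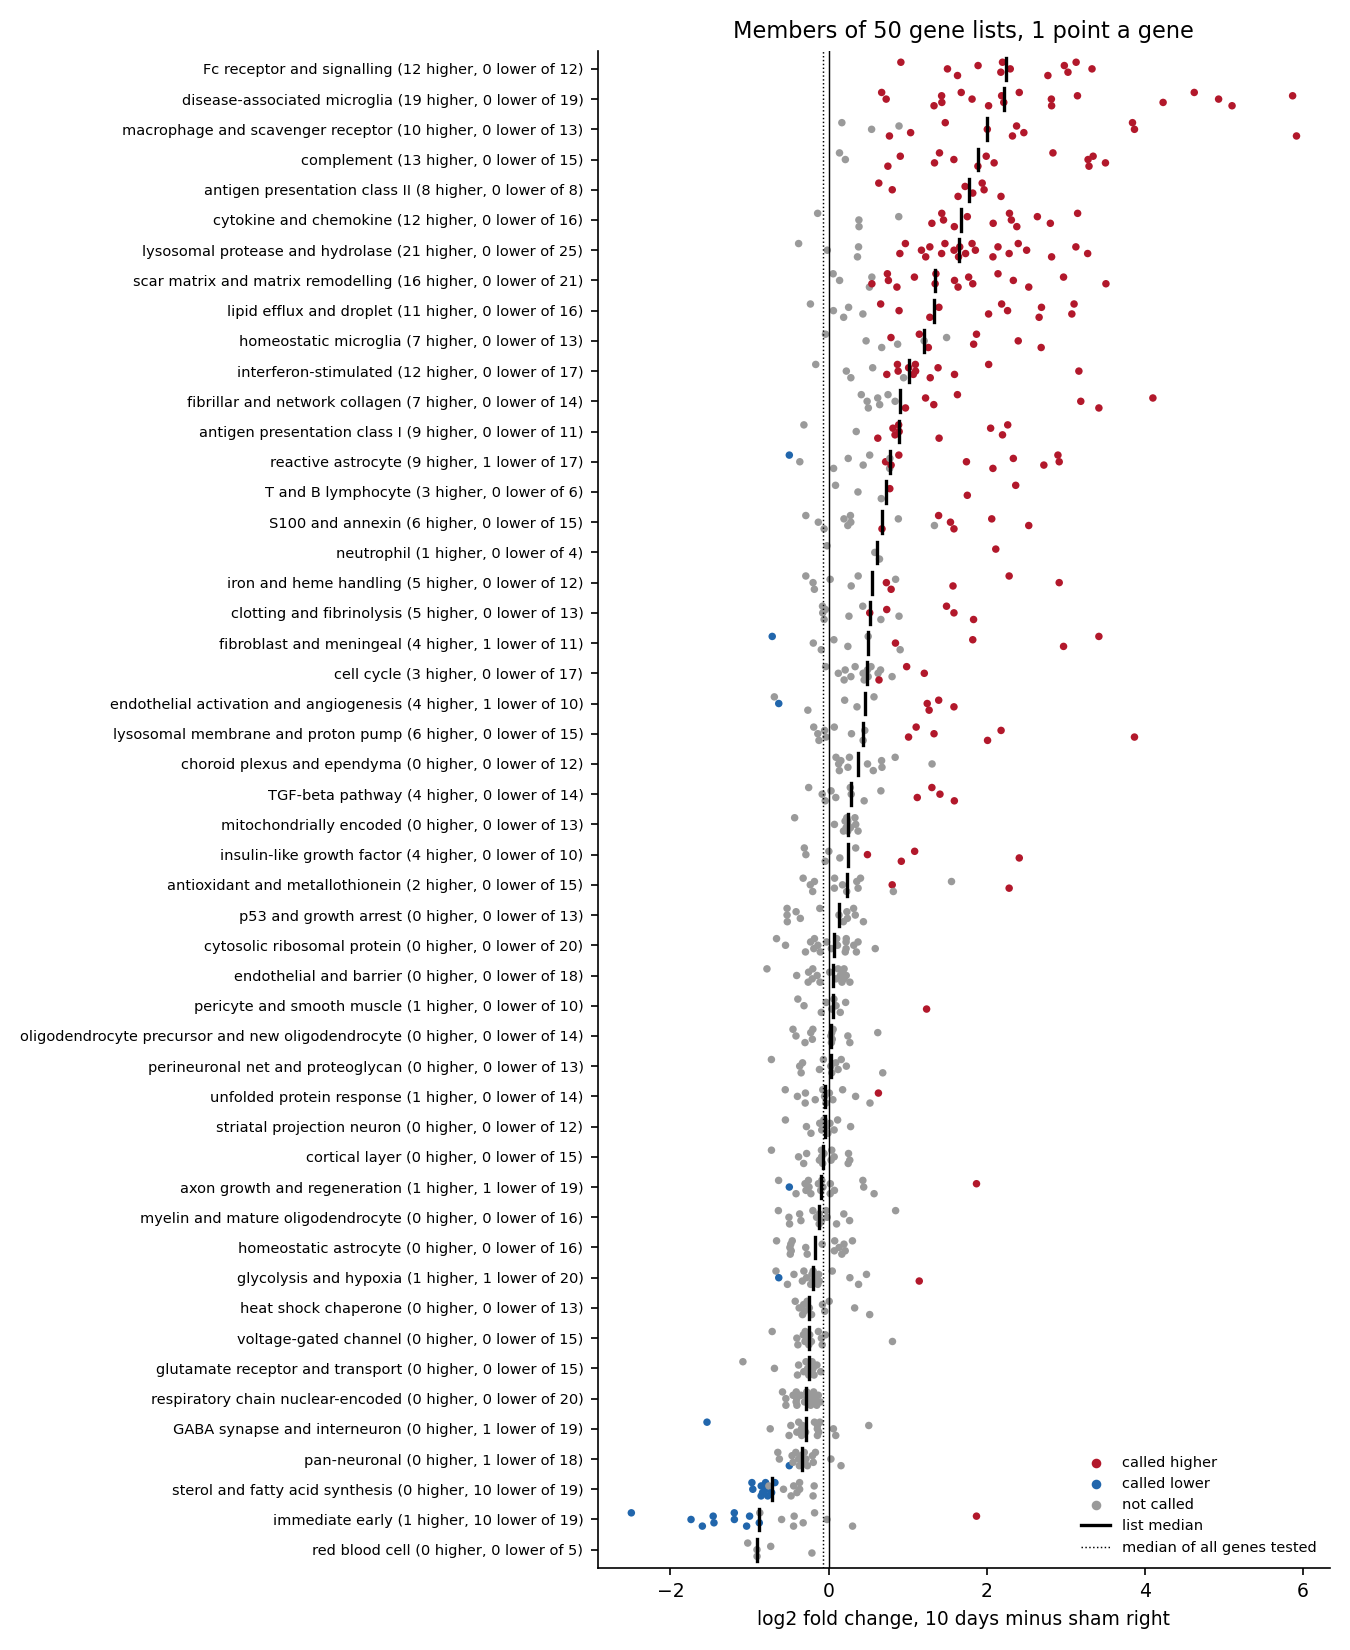
Log2 difference at 10 days minus sham right of the tested members of 50 gene lists, a point per gene coloured by its call, with a black bar at the list median and a dotted line at the median of all tested genes (-0.07). Phagocyte, Fc receptor, complement and lysosomal lists lie to the right with medians up to 2.25. Red cell genes (0 of 5 called), immediate early genes and sterol synthesis genes lie to the left at -0.905, -0.88 and -0.72.

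**Figure D4:**
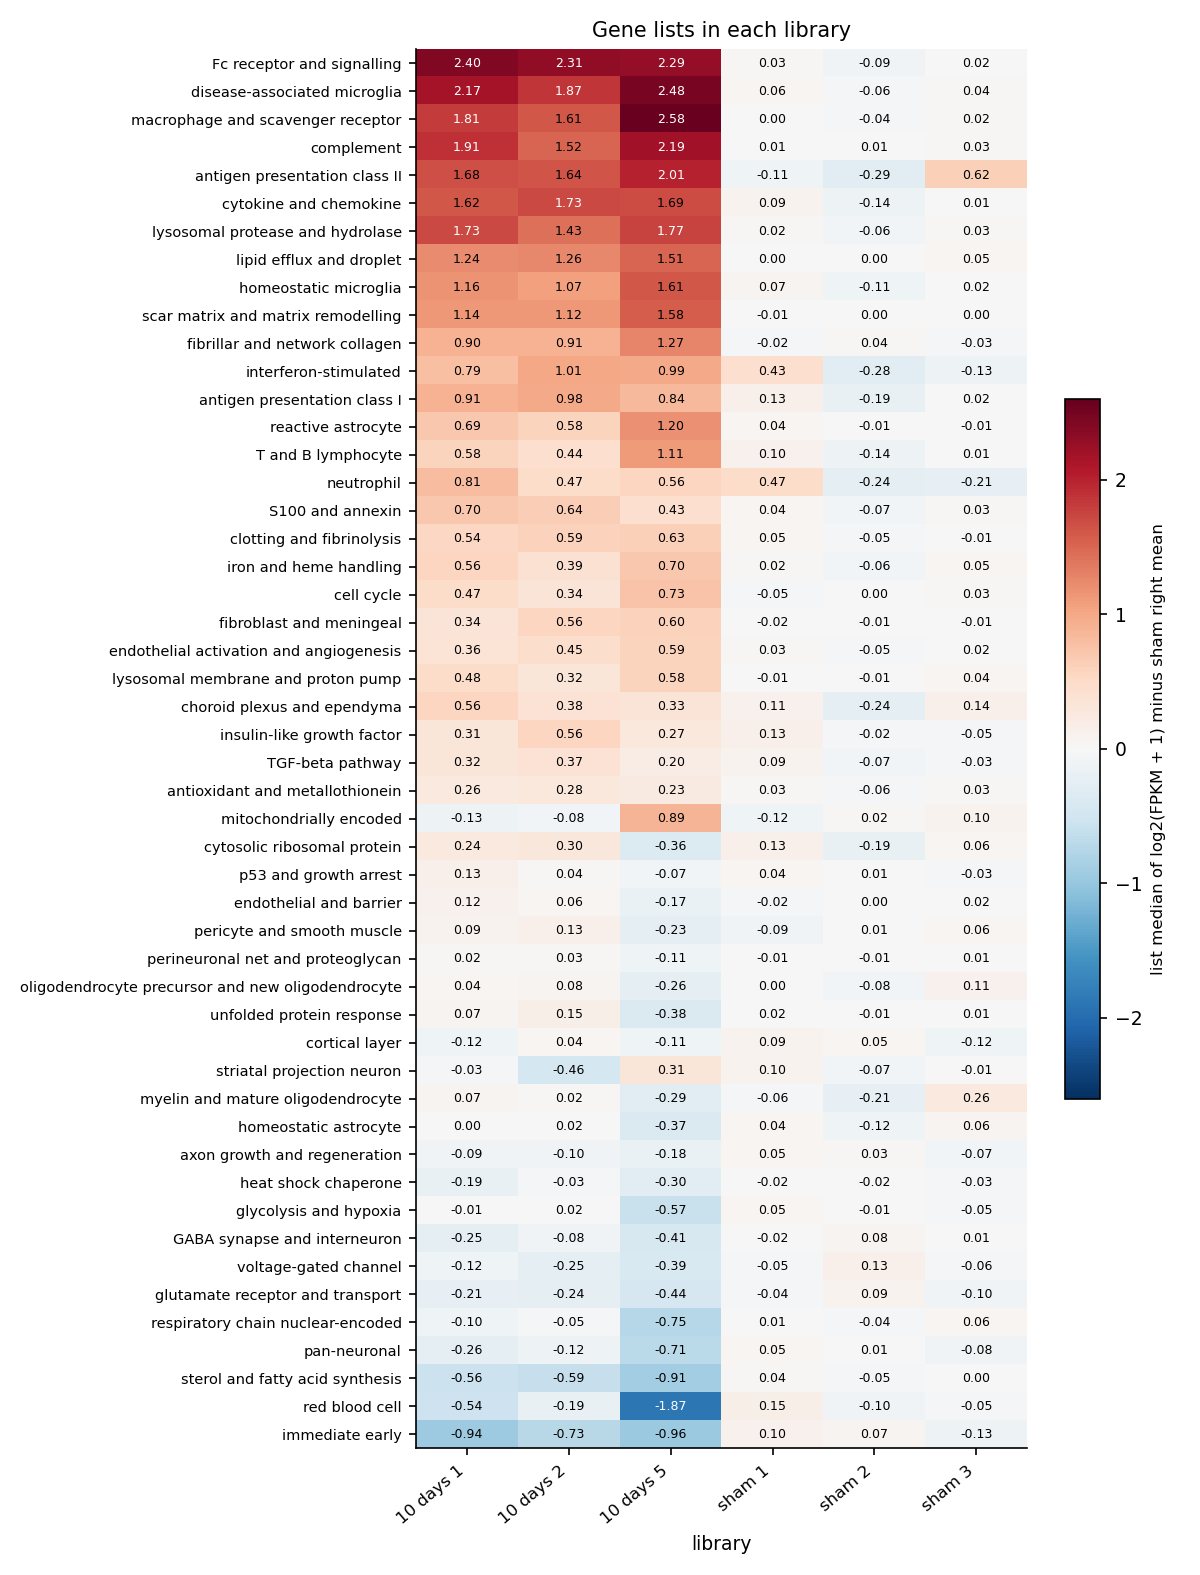
Median log2(FPKM + 1) of each list minus its sham mean, for the 3 lesion libraries (left) and the 3 sham libraries (right). Macrophage genes are at 1.81, 1.61 and 2.58 in lesion libraries 1, 2 and 5, and library 5 is the lowest column for pan-neuronal genes at -0.71.

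The change since the earlier phase was measured against the lesion at 3 days, 3 libraries of the same design. At 10 days 283 genes differed (2.02% of those tested), 116 of them higher than at 3 days (0.828%) and 167 lower (1.19%), with a median difference of -0.15 over all genes. The count rests on the spread shared by all 18 libraries, since a fit of the 6 libraries alone called 3 genes, and without library 1 at 3 days it was 160. Without library 5 at 10 days it was 210. Centring each library on its median log ratio gave 162 higher and 117 lower, and quantile normalization 192 and 142, so which direction is more frequent depends on the scaling. Of the 1000 genes that differed from sham, 113 were higher than both sham and 3 days, 15 were higher than sham but lower than at 3 days, 16 were lower than both, and 0 were lower than sham and higher than at 3 days.

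Several phagocyte and lipid genes were higher at 10 days than at 3 days; bracketed values here are 10 days minus 3 days. Cst7 had 36.2, 33.5 and 41.5 FPKM at 10 days, against 4.27, 2 and 3.3 FPKM at 3 days (3.22 ± 0.18, adjusted p = 8.35e-08), and Clec7a had 30.9, 23.8 and 80.1 FPKM at 10 days, against 2.06, 1.02 and 2.37 FPKM at 3 days (3.87 ± 0.31, adjusted p = 5.28e-06). In both, each value at 10 days was well above each value at 3 days. Apoe stood at 1417, 1106 and 1199 FPKM at 10 days and 272, 227 and 259.9 FPKM at 3 days (2.29 ± 0.20, adjusted p = 1.44e-05). At 3 days it lay within or just under the sham values. Lyz2 was higher by 2.99 (adjusted p = 0.00238), Gpnmb by 2.51 (adjusted p = 0.00127), Apoc1 by 2.77 (adjusted p = 0.000441) and Igf1 by 1.9 (adjusted p = 0.000736). Spp1, at 463, 208 and 425 FPKM at 3 days, and Lgals3, at 43.1, 11.9 and 23.2 FPKM, were already high then and did not pass the test (adjusted p = 0.245 and 0.805). Of the disease-associated microglia list 9 of 19 were higher than at 3 days and 0 lower (median 1.12), and of the lysosomal hydrolases 8 of 25 and 0 (median 0.48).

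Several collagen and matrix genes were higher than at 3 days as well. Col3a1 had 21, 24 and 45 FPKM at 10 days, against 1.8, 3.6 and 10.7 FPKM at 3 days (2.46 ± 0.38, adjusted p = 0.00186), and Col1a1 15, 17 and 35.1 FPKM at 10 days, against 1.57, 2.54 and 10.0 FPKM at 3 days (2.23 ± 0.40, adjusted p = 0.0055). At 3 days library 8 was the highest for both and stayed below all values at 10 days. Mmp3 was higher by 2.45 (adjusted p = 0.00186). Of the collagen list 3 of 14 were higher and 0 lower, and of the scar matrix list 5 of 21 and 1.

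Several reactive astrocyte and stress genes were lower than at 3 days. Lcn2 had 9.63, 5.24 and 8.81 FPKM at 10 days, against 42.4, 25.5 and 19.5 FPKM at 3 days (-1.73 ± 0.30, adjusted p = 0.00476), Gfap 230.1, 223 and 179 FPKM at 10 days, against 517, 362 and 424 FPKM at 3 days (adjusted p = 0.0497), and Vim 29.3, 30.8 and 50.1 FPKM at 10 days, against 82.4, 58.3 and 72.9 FPKM at 3 days (adjusted p = 0.0499). Each 10-day value lay below each 3-day value, though the calls of Gfap and Vim sit at the threshold: that of Gfap ended without any 1 of the 6 libraries and that of Vim without any except library 5 at 10 days (adjusted p up to 0.222 and 0.214). Of the reactive astrocyte list 4 of 17 were lower and 0 higher (median -0.47). Hmox1 had 13.1, 12.7 and 18 FPKM at 10 days, against 107, 35.6 and 86 FPKM at 3 days (-2.18 ± 0.39, adjusted p = 0.0055). Tgm1, a transglutaminase, had 1.68, 0.957 and 0.924 FPKM at 10 days, against 27.4, 16.9 and 23.3 FPKM at 3 days (-3.42 ± 0.21, adjusted p = 2.16e-07), and remained above the sham values of 0.0154, 0.0515 and 0.0228 FPKM (1.07 ± 0.21, adjusted p = 0.00313). Arg1 was at 0.12, 0.211 and 0.312 FPKM at 10 days, against 14.5, 4.15 and 14.6 FPKM at 3 days (-3.15 ± 0.30, adjusted p = 3.04e-05), and 2 of the 3 values at 10 days lay above all sham values of 0.137, 0.0378 and 0.0654 FPKM. Igfbp2 differed by -2.29 (adjusted p = 0.00701).

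Cell cycle genes were lower than at 3 days in 11 of 17 cases (median -0.99). Ccnb2 differed by -1.26 (adjusted p = 0.0121; 0.0519 without library 8 at 3 days), while Mki67, at 1.4, 1.2 and 4.94 FPKM at 10 days and 5.22, 3.72 and 8.49 FPKM at 3 days, did not pass the test (adjusted p = 0.115). Immediate early genes were lower in 7 of 19 cases (median -0.84). Arc had 12.6, 22 and 9.25 FPKM at 10 days, against 57.3, 78.7 and 71.8 FPKM at 3 days (-2.24 ± 0.26, adjusted p = 0.000246), and Fos 2.94, 3.56 and 4.85 FPKM at 10 days, against 9.73, 13.9 and 25.6 FPKM at 3 days (-1.78 ± 0.27, adjusted p = 0.0016). At 3 days 1 or more values of both genes lay within the sham range. Low levels were also seen before 3 days, with Arc at 34.6 to 46.1 FPKM at 4 h and 24.5 to 46.9 FPKM at 1 day, below all sham values and above all values at 10 days. Fos, at 11.1 to 15.5 FPKM at 4 h, overlapped with sham, and at 8.91 to 11.1 FPKM at 1 day it lay below all sham values. These earlier levels are given without a test.

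**Figure D5:**
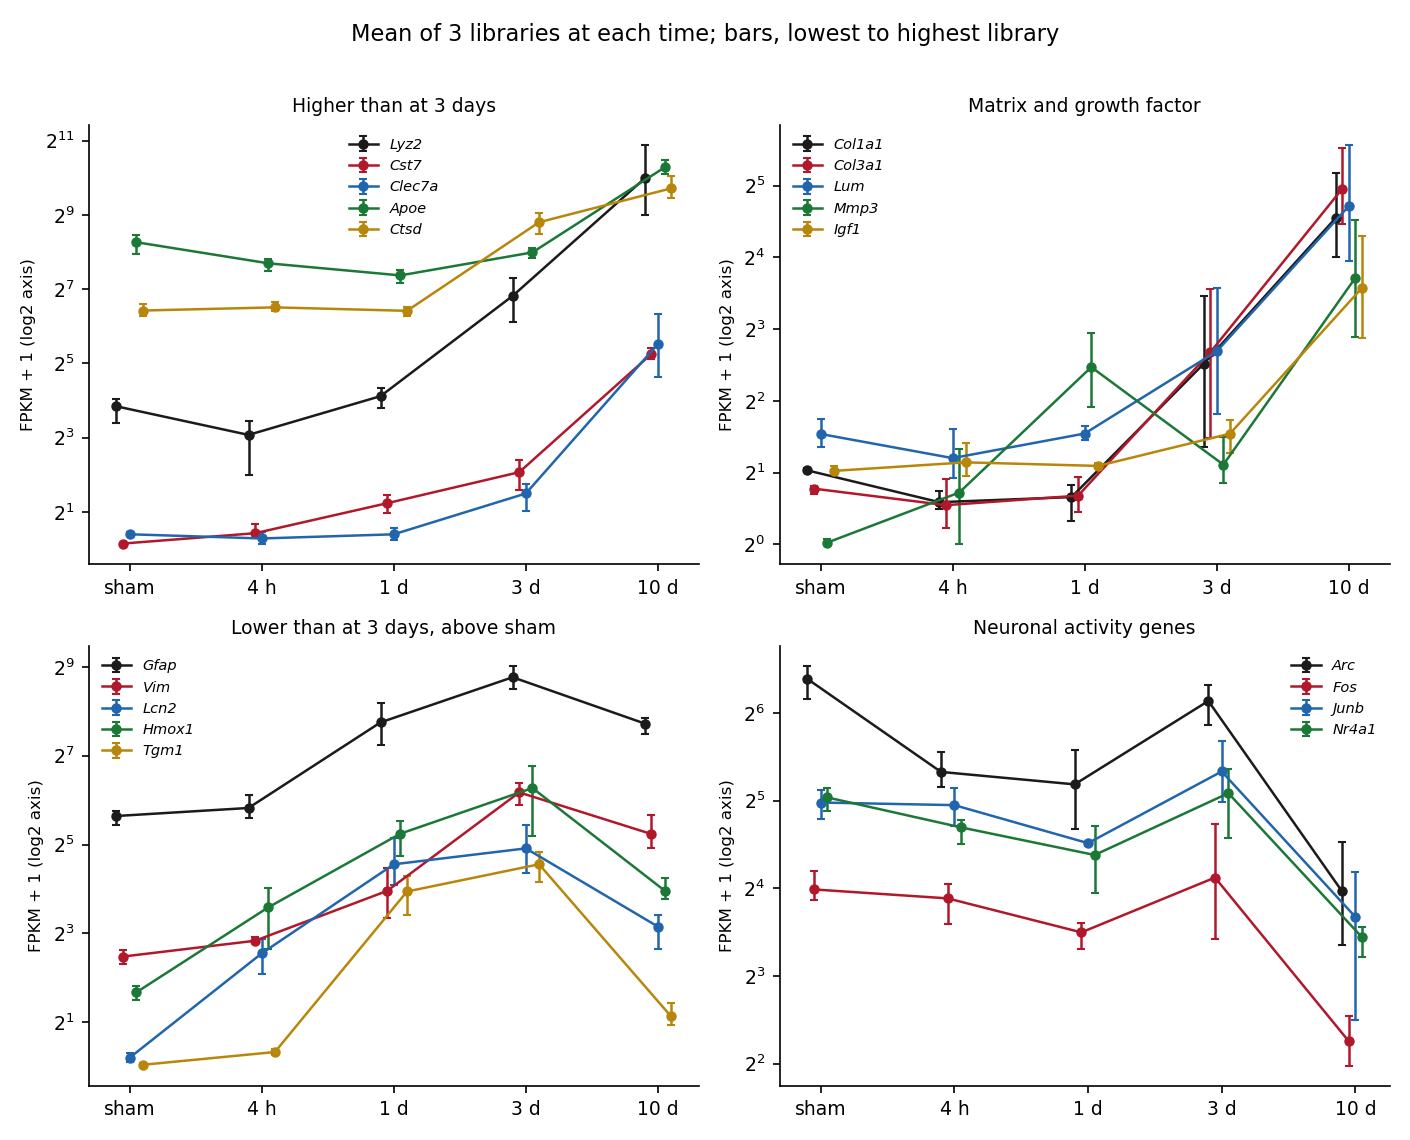
Mean FPKM + 1 (log2 axis) at sham right, 4 h, 1 day, 3 days and 10 days with bars from the lowest to the highest of 3 libraries, in panels of phagocyte and lipid genes, matrix genes with Igf1, glial and stress genes, and immediate early genes. Cst7, Clec7a, Apoe and the collagens are highest at 10 days, Gfap and Lcn2 lie below their 3-day level, and Arc is at 14.6 FPKM at 10 days against 82.7 FPKM in sham right.

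The left-side punches were used as a second control. By the protocol they are contralateral tissue of stroke mice, but the titles and the disease state label them as sham. The labels give them no time after surgery, so what they control for is uncertain, and they do not say whether a left punch came from a mouse that also gave a right one. The deviations of same-numbered libraries from their group means correlated at 0.219 and 0.102 between the left and sham right (numbers 1 and 3) and -0.057 and 0.131 between 10 days and the left (numbers 1 and 5). Pairs with different numbers ran from -0.314 to 0.371, so these values cannot decide whether animals are shared. Against the left-side punches 1208 genes differed at 10 days (8.62%), 1009 higher (7.2%) and 199 lower (1.42%). Immediate early genes were lower in 4 of 19 cases (median -0.41) and sterol synthesis genes in 3 of 19 (median -0.41); against sham right both counts were 10. Arc had 12.6, 22 and 9.25 FPKM at 10 days, against 45.5, 39.2 and 41.3 FPKM on the left (-1.54, adjusted p = 0.000673); the left values lay between the lesion and sham right. Fos differed from the left by -0.85 and was not called (adjusted p = 0.0616). The rises of Lyz2 (6.11), Cst7 (4.87), Apoe (1.99), Col1a1 (3.68) and Gfap (1.72) had the same direction and were called with this control as well (adjusted p = 3.05e-07, 1.42e-10, 3.37e-06, 7.32e-06 and 0.000209).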

How the data were processed

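Total RNA of micropunched mouse brain (18 libraries, 6 groups of 3 animals) had been sequenced. The submitters' processing notes name the trimmer Trimmomatic 0.36, the aligner HISAT2 2.1.0, the assembler StringTie 1.3.4d and genome build GRCm38. Settings, annotation and strand handling are not given in the sources used here, so reads of overlapping or antisense genes may not be told apart. The authors deposited FPKM per gene and library. The p-value and the q-value that the authors deposited per gene name no comparison and entered no test (a q-value under 0.05 is given for 1178 genes). The table used ends inside a line: 34921 complete entries were read, and 3101 more, implied by the ratio of q-value to p-value in its first entry, were not analysed here. FPKM carries no counts, so neither depth nor counting intervals can be given.

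Identifiers were matched to GENCODE M21 (34837 matched). Genes at 1 FPKM or more in at least 3 libraries entered a limma 3.58.1 fit of log2(FPKM + 1) in R 4.3.3 with statmod 1.5.0 and the package data.table (1.17.8). The model had a mean for each group over the 18 libraries (12 residual degrees of freedom) and trended, robust moderation, and p-values were adjusted by Benjamini-Hochberg. Tables and figures used Python 3.11.15, pandas 2.3.3, numpy 2.4.6, scipy 1.17.1 and matplotlib 3.10.9. The code was tested on simulated data. Members and the 50 gene lists were chosen with earlier results of these data known. Lists are described by counts and medians, without a test. Named genes are the 12 largest rises and falls with groups apart and a higher mean of at least 1 FPKM, the 4 largest called members of each list (all where 5 or fewer were called), the 5 largest rises and falls against 3 days, and a fixed panel of 50 genes. Genes shown for their promoters are in addition, and so are genes named where a list had no call and some list members under the filter. Some genes that meet these rules are not reported here by name. Alternatives were other controls, scalings, filters and pseudocounts, fits with weights, of the groups compared only or with the replicate number as a block, and leaving out each library. The 3 libraries of a group are separate animals per the labels. The p-values of the main fit use the spread between animals within groups, pooled over all 18 libraries and then moderated. They do not rest on the spread of the compared animals alone.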

Additional observations from a re-analysis of the deposited data

Results flagged for a closer look

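The effect of the lesion relative to sham right differed between 10 days and 3 days for 44 of the named genes, by the limma contrast of the 2 times (adjusted p under 0.05 over all tested genes). Both effects use the same sham libraries, so the difference equals that of the lesion libraries themselves. The values are log2 differences, 10 days minus 3 days.

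Higher at 10 days than at 3 days were phagocyte genes, with Clec7a at 3.87, Cst7 at 3.22, Lyz2 at 2.99, Gpnmb at 2.51, Mpeg1 at 1.34, Bcl2a1b at 1.28, Cd5l at 1.14 and Trem2 at 1.12. The same held for lipid genes, with Apoc1 at 2.77, Apoe at 2.29, Lpl at 1.48 and Abca1 at 1.41. Matrix and growth factor genes were higher as well, with Col3a1 at 2.46, Mmp3 at 2.45, Col1a1 at 2.23, Col1a2 at 2.08, Lum at 2.04, Igf1 at 1.9, Tgfbr1 at 0.84 and Tgfbr2 at 0.69. Of lysosomal genes, Atp6v0d2 was at 1.82, Ctss at 1.2, Ctsd at 0.91 and Slc11a1 at 0.64. Of immune genes, Igkc was at 2.39, Ccl3 at 1.61, C3 at 1.22, Ccl5 at 1.12, B2m at 0.91 and Cd86 at 0.80.

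Lower at 10 days than at 3 days were Tgm1 at -3.42, Arg1 at -3.15, Igfbp2 at -2.29, Hmox1 at -2.18, Lcn2 at -1.73, Gfap at -1.04, Vim at -0.96, Ifitm3 at -0.92, Ccnb2 at -1.26 and Igfbp3 at -0.68, and the immediate early genes Arc at -2.24, Junb at -1.79, Fos at -1.78 and Nr4a1 at -1.61.

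Of the 44 calls, 27 held without each of the 6 libraries in turn. Those of Bcl2a1b, Slc11a1, Abca1, B2m, Cd86, Igkc, Ccl3, Lum, Tgfbr2, Gfap and Ifitm3 ended without library 5 at 10 days, and Vim, Ctsd, Ctss, Col1a2, Ccnb2 and Igfbp3 lost theirs without other libraries. That of Atp6v0d2 held, at 1.13 without library 5 at 10 days.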

How the results depend on the processing

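The count of 1000 genes was within 1.5 times of its value under every alternative run (695 in a fit of the 2 groups only to 1325 with both controls; 835 with nuclear FPKM rescaled to a fixed total, 858 to their mean total) except sample quality weights, which gave 1705 (1352 higher, 353 lower). Leaving out 1 library gave 737 (sham right 2) to 1185 (left 5). The share higher, 87.1%, was 74.3% under quantile normalization (868 higher, 301 lower) and 74.7% without library 1 or library 2 at 10 days. The count against 3 days (283) was 3 in a fit of the 2 groups only, 181 with nuclear FPKM rescaled to a fixed total, 173 with a pseudocount of 0.1 and 878 with sample quality weights; without 1 library it ran from 160 to 356, and the share higher from 26.5% to 61.0%. The cause was not tested. The 2-group fit had fewer samples and also took its spread from the 2 groups alone. The difference in the mitochondrial share ran from -1.99 to 5.67 points without 1 library.

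Whether libraries with the same replicate number belong together could not be told. Correlations of same-numbered deviations at 10 days were 0.0974 and -0.16 with sham right, -0.0175 and 0.252 with 3 days, and -0.057 and 0.131 with the left. Differently numbered pairs with the left ran from -0.314 to 0.371, so these correlations cannot decide it. With the number as a replicate block, 904 genes differed from sham right and 142 from 3 days (81 higher, 61 lower).

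Of 124 named genes called, 92 kept the call in all 21 alternatives and 123 the direction. Mt1 reversed to -0.11 with the left control. Uncalled genes changed sign as well. Igfbp2 was at 0.19 with the block, 0.36 with weights, 0.43 without both library 5 and left 5 and -0.72 to 0.43 without 1 library, Snap25 at -0.023 under quantile normalization, and Gad1 at 0.0227 with both controls, 0.17 with the left control, 0.0184 without both library 5 and left 5 and -0.20 to 0.0184 without 1 library. With the left control 13 calls ended, and without library 5 at 10 days 20. The most, 28, ended in the fit of the 2 groups only.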
